A study of Mus musculus with 4 samples.

Results

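Expression of the glucocorticoid receptor gene *Nr3c1*, of 7 genes that the activated receptor induces (*Fkbp5*, *Per1*, *Tsc22d3*, *Zbtb16*, *Dusp1*, *Sgk1* and *Klf9*) and of the enzyme genes *Hsd11b1* and *Hsd11b2*, which set the local level of active hormone, was analyzed in mouse embryonic lung. The genes were taken by symbol: a gene was represented by its probe set with exactly 1 gene symbol in the platform annotation, and each of the 10 had 1 such probe set, of 19938 genes measured in this way. Lungs of E18.5 embryos, all C57BL/6, gave 2 samples of *Hmga2*-/- (KO) and 2 samples of *Hmga2*+/+ (WT), and 1 Affymetrix array was hybridized per sample. The labels name no conditional allele, so the knockout is taken as that of the whole embryo, and the whole lung was used, so the mRNA of epithelium, mesenchyme, vessels and blood cells was measured together. The labels name no hormone treatment in either group, and the study was made to find out what the chromatin protein HMGA2 does in the developing lung.

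Glucocorticoids are steroid hormones of the adrenal cortex that enter the cell and bind the glucocorticoid receptor, which is held by chaperones in the cytoplasm. The bound receptor moves to the nucleus and binds glucocorticoid response elements, a pair of inverted hexamers, and thereby induces genes of feedback, metabolism and the control of inflammation. Before birth the fetal hormone surge matures the lung. The distal airspaces widen, the mesenchyme between them thins and surfactant is made, and mice without the receptor die of respiratory failure soon after birth.

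Levels are log2 values from RMA, a method that corrects the background, brings the arrays close to a common distribution and gives 1 value per probe set. A difference is always the mean of KO minus the mean of WT on this log2 scale. Differences were tested with limma over all 19938 genes, and a gene was called when its p value was under 0.05 after Benjamini-Hochberg adjustment across the whole table. Of all genes 0.782% were called, 0.702% as lower and 0.0802% as higher in KO. The numbers called lower and higher were 140 and 16, where median centring gave 221 and 73 and cyclic loess 270 and 80. Levels of different genes cannot be set against each other, since each probe set has its own brightness. The KO arrays correlated with each other at r = 0.997 across probe sets and the WT arrays at 0.985, and WT replicate 1 stood apart, with r = 0.976 to each KO array. WT replicate 2 correlated with the KO arrays at 0.994 and 0.992, more closely than with WT replicate 1. The median log2 level was 8.02 and 7.91 on the KO arrays and 7.99 and 8.02 on the WT arrays. The titles of both WT arrays carry the name WT1, with different replicate numbers, while those of the KO arrays read KO1 and KO2. Whether the WT arrays come from different animals is thus less sure than their replicate numbers say, and every interval and p value rests on it. The *Hmga2* probe set had log2 values of 9.65 and 9.39 in the KO arrays and of 9.35 and 9.59 in the WT arrays, so the groups overlapped, and it is not known here whether it lies in the deleted part. It therefore does not settle the labels, and KO stands for the arrays that carry this label.

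The promoters of the genes are shown first, since most of the 10 genes are known to be induced through the receptor. RefSeq promoter windows on GRCm38.p6, 250 bases before to 50 bases after a start site, were used for 7 of the 10 genes, in 15 windows. No window of *Nr3c1*, *Hsd11b2* or *Zbtb16* was among the 15, so the promoters of these genes were not examined. Their absence says nothing of whether RefSeq holds windows for them. The letters searched, on both strands, were the glucocorticoid response element (AGAACA and TGTTCT with 3 bases of any kind between), the same in a relaxed form (GNACA and TGTNC with 3 bases between, which the strict form contains), the hexamer AGAACA alone (also a part of the strict form), the E-box CACGTG, which the clock proteins bind, and the cAMP response element TGACGTCA. The windows below are of *Klf9*, the gene called as lower, of *Hsd11b1* and *Tsc22d3*, whose KO levels lay below both WT levels, and of *Sgk1*, *Dusp1*, *Per1* and *Fkbp5*, whose windows hold a match. The 250 bases before the start site are given 5′ to 3′, with matches in capitals.
*Klf9* (chr19:23140976-23141225, strand +): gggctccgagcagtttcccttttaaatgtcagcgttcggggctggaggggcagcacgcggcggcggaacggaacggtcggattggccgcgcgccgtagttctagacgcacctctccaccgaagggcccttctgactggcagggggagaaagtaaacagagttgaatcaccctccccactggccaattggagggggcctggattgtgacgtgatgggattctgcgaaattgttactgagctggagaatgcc
*Hsd11b1* (chr1:193242361-193242610, strand -): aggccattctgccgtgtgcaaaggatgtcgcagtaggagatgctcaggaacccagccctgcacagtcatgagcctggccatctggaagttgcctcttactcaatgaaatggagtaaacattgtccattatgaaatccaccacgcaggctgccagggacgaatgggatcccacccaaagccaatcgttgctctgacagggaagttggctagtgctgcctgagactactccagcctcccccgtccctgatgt
*Tsc22d3* (chrX:140600523-140600772, strand -): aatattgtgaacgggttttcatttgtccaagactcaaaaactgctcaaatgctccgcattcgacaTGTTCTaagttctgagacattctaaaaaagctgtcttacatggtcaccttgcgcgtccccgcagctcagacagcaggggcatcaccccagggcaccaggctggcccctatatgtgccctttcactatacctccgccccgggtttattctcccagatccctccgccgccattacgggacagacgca
*Sgk1* (chr10:21993640-21993889, strand +): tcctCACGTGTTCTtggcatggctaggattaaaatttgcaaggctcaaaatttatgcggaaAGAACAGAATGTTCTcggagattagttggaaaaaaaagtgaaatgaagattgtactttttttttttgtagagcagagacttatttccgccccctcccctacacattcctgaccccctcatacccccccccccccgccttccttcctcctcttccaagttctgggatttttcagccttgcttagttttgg
*Dusp1* (chr17:26508473-26508722, strand -): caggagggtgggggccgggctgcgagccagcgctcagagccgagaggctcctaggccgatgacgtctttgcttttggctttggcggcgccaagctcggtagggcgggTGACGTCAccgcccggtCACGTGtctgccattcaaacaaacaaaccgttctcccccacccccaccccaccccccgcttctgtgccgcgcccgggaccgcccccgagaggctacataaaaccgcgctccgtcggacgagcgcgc
*Per1* (chr11:69098699-69098948, strand +): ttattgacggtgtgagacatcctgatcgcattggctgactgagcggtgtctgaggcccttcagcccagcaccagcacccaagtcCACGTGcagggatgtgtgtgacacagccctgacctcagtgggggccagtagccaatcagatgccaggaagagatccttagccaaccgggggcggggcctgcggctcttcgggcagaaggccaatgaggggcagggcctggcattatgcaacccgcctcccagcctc
*Fkbp5* (chr17:28486150-28486399, strand -): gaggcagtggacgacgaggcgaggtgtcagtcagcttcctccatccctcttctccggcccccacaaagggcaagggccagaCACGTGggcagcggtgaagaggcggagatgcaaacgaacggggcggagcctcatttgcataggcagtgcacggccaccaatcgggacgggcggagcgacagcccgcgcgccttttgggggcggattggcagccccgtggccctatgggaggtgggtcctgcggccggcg

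The strict response element was found in 1 of the 15 windows, a window of *Sgk1*, at bases -189 to -175 from that start site. Over all 32851 windows it was found in 3, or 0.00913%, and the relaxed form in 0.475% and in the same *Sgk1* window. The hexamer stood in 4 windows, 26.7% of the 15 against 19.0% of all windows. These belonged to 2 of the 7 genes, *Sgk1* and *Tsc22d3*. More of the 15 windows came from *Sgk1* than from any other gene, so a share of windows is not a share of genes. *Tsc22d3* had the hexamer at -185 to -180, and in the *Sgk1* window shown above a copy of it overlaps the E-box. The E-box stood in 1 window each of *Per1*, *Dusp1*, *Fkbp5* and *Sgk1*, 26.7% against 7.15% of all windows. *Dusp1* also had the cAMP response element, at -143 to -136, which 1.79% of all windows hold. The windows of *Klf9* and *Hsd11b1* held none of these letters. The *Hsd11b1* window lies inside the annotated gene, which runs from 193221640 to 193264045 on strand -. No window at its 5′ end, near base 193264045, was among the 15, so a promoter there was not examined. The *Per1* windows also lie inside the annotated gene, which starts at base 69095108. A match is a description of letters, and a window without one says nothing of elements farther away.

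**Figure D1:**
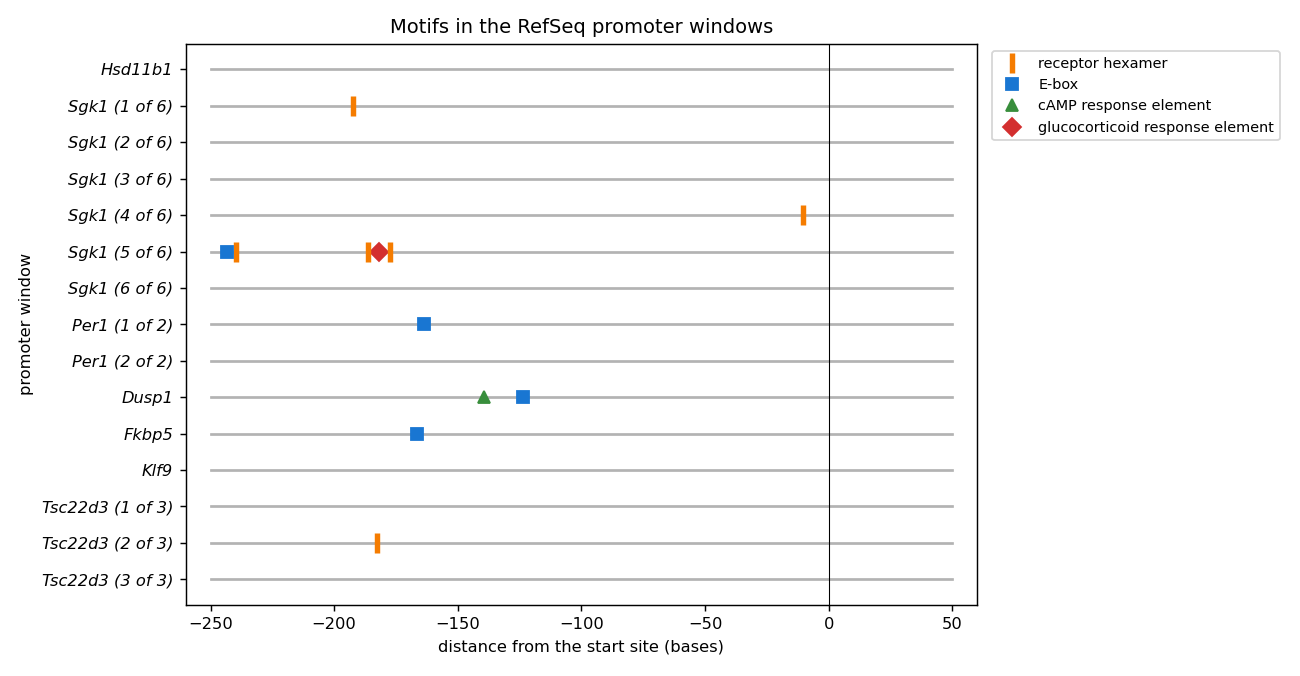
Each line is 1 promoter window of a gene, drawn from 250 bases before to 50 bases after its start site (horizontal axis, bases), and symbols mark the motifs found on either strand, the relaxed response element left out. The strict response element appears once, at -189 to -175 in a window of *Sgk1*, and the lines of *Klf9* and *Hsd11b1* are empty.

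The 10 genes lay mostly lower in KO lungs. The mean was lower in KO for 8 of them and higher for *Hsd11b2* and *Sgk1*, where 58.8% of all genes were lower and 41.2% higher. The median difference was -0.24, against -0.05 over all genes. With the dimmest 40 percent of genes left out, the median over the remaining genes was 0.03, and that of the 10 genes stayed at -0.24. For 7 of the 10 both KO levels lay below both WT levels, as for 31.8% of all genes, and for *Hsd11b2* both lay above, as for 17.6%. Past a 1.2-fold difference and without overlap, 5 genes were lower (*Klf9*, *Zbtb16*, *Hsd11b1*, *Tsc22d3* and *Fkbp5*), where 15.1% of all genes met this, and *Hsd11b2* was higher, where 10.8% did. Past 1.5-fold, 3 were lower (*Klf9*, *Zbtb16* and *Hsd11b1*), where 3.67% of all genes were. By limma, 1 of the 10 was called, *Klf9*, as lower, and none as higher, with 4 lower and 0 higher at an unadjusted p under 0.05, which 8.58% and 5.88% of all genes had. With a KO array left out, 0 of the 10 were called as lower, and 1 (without KO replicate 1) or 0 (without KO replicate 2) of all genes. With WT replicate 1 left out, 5 of the 10 were called as lower and 1133 of all genes, and with WT replicate 2 left out 4 and 2971. In those fits without a WT array limma gave every gene the same standard error, 0.155, so that a call there reflects the size of the difference alone and carries no spread of the gene itself, and no p value from them is given. The median of the 10 genes was -0.36 without WT replicate 1. KO replicate 2 was the lowest array for 6 of the 10 genes and WT replicate 2 the highest for 6, against 40.5% and 27.3% of all genes.

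**Figure D2:**
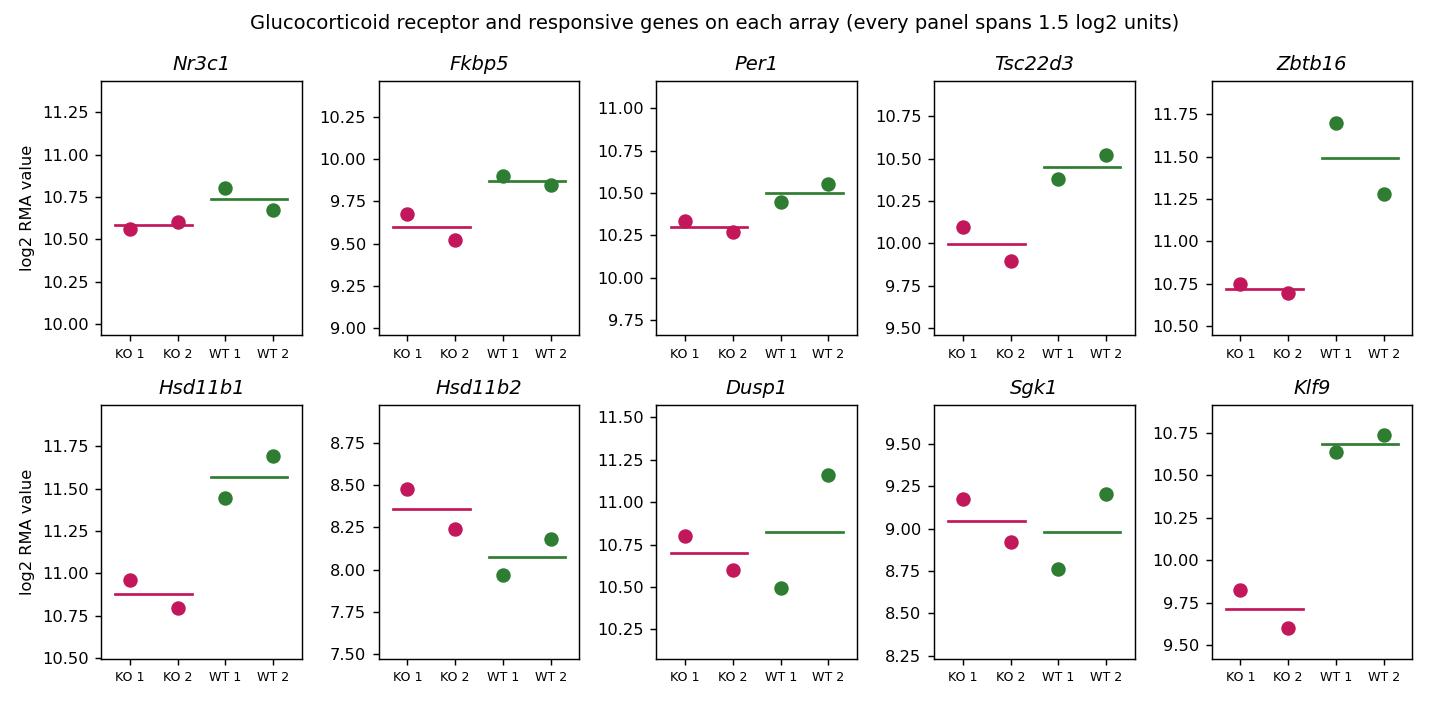
Each panel shows the log2 RMA values of 1 gene (vertical axis, 1.5 log2 units in every panel) on the 2 KO and 2 WT arrays, with a line at each group's mean. The KO points of *Klf9*, *Zbtb16*, *Hsd11b1* and *Tsc22d3* lie clear below the WT points, while those of *Dusp1* and *Sgk1* lie between the WT points.

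The receptor gene itself had a small difference. *Nr3c1* had log2 values of 10.56 and 10.60 in the KO arrays and of 10.81 and 10.67 in the WT arrays. Both KO levels lay below both WT levels, by a gap of 0.07, which is smaller than the distance of 0.13 between the WT arrays. The difference was -0.16 (standard error 0.13, 95% interval -0.47 to 0.16, adjusted p = 0.587 from limma), or 0.897 of the WT level. The interval includes 0. Left-out KO arrays gave -0.14 (replicate 1) and -0.18 (replicate 2), and left-out WT arrays -0.09 (replicate 1) and -0.22 (replicate 2).

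The enzymes that make and remove active hormone went apart in their means. *Hsd11b1*, which in the lung regenerates active glucocorticoid from its inert keto form, had log2 values of 10.96 and 10.80 in the KO arrays and of 11.44 and 11.70 in the WT arrays. Its KO levels lay below the WT levels by a gap of 0.48, wider than the distance of 0.25 between the WT arrays. The difference was -0.69 (standard error 0.15, 95% interval -1.05 to -0.33, adjusted p = 0.111 from limma), or 0.62 of the WT level, and it was not called over all genes. It was called with cyclic loess (-0.74, adjusted p = 0.0392). It was not called with the replicate block (0.091), median centring (0.059) or the dimmest genes left out (0.0727). Nor was it called with averaged probe sets (0.115) or with trend and robust (0.0914). Left-out KO arrays gave -0.77 (replicate 1) and -0.61 (replicate 2), and left-out WT arrays -0.82 (replicate 1) and -0.56 (replicate 2). *Hsd11b2*, which inactivates glucocorticoid, had log2 values of 8.48 and 8.24 in the KO arrays and of 7.97 and 8.18 in the WT arrays. These groups came as close as 0.06, less than the distance of 0.24 between the KO arrays. The difference was 0.28 (standard error 0.15, 95% interval -0.08 to 0.65, adjusted p = 0.433 from limma), where left-out KO arrays gave 0.17 (replicate 1) and 0.40 (replicate 2), and left-out WT arrays 0.18 (replicate 1) and 0.39 (replicate 2). *H6pd* makes the cofactor that the *Hsd11b1* enzyme needs in the endoplasmic reticulum. It had log2 values of 11.39 and 11.35 in the KO arrays and of 11.65 and 11.76 in the WT arrays, with no overlap, and limma gave -0.33 (standard error 0.13, adjusted p = 0.319).

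Among the responsive genes, *Klf9* and *Zbtb16*, both of which encode transcription factors, had the lowest differences. *Klf9*, a zinc finger repressor that the receptor induces directly, had log2 values of 9.82 and 9.60 in the KO arrays and of 10.64 and 10.74 in the WT arrays. The gap of 0.81 between the groups exceeded the distances of 0.22 and 0.10 within KO and WT. *Klf9* fell in KO, the difference being -0.98 (standard error 0.14, 95% interval -1.32 to -0.64, adjusted p = 0.0469 from limma), or 0.508 of the WT level, and 1.17% of all genes had a lower difference. *Klf9* was no longer called with either KO array left out, where almost no gene of the whole table was. Its difference was -1.09 without KO replicate 1 and -0.86 without KO replicate 2. It was -1.03 with WT replicate 1 left out and -0.93 with WT replicate 2 left out. *Zbtb16*, the zinc finger factor PLZF, which is induced by steroids in many cells and shapes the embryonic axis and limbs, had log2 values of 10.75 and 10.69 in the KO arrays and of 11.70 and 11.28 in the WT arrays. The WT arrays differed by 0.42 and the groups were 0.53 apart. Its difference was -0.77 (standard error 0.17, 95% interval -1.18 to -0.36, adjusted p = 0.118 from limma), or 0.586 of the WT level. Left-out KO arrays gave -0.80 (replicate 1) and -0.74 (replicate 2), and left-out WT arrays -0.56 (replicate 1) and -0.98 (replicate 2). *Tsc22d3*, the leucine zipper protein GILZ, which carries part of the action of glucocorticoid against inflammation, had log2 values of 10.10 and 9.89 in the KO arrays and of 10.38 and 10.52 in the WT arrays. These groups did not overlap either, with a gap of 0.28. The difference was -0.45 (standard error 0.14, 95% interval -0.80 to -0.11, adjusted p = 0.222 from limma), or 0.73 of the WT level. Left-out KO arrays gave -0.56 (replicate 1) and -0.35 (replicate 2), and left-out WT arrays -0.53 (replicate 1) and -0.38 (replicate 2).

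*Fkbp5* and *Per1*, which are read widely as reporters of receptor activity, had smaller differences. *Fkbp5*, a cochaperone that lowers the hormone affinity of the receptor and thus closes a feedback loop, had log2 values of 9.68 and 9.52 in the KO arrays and of 9.90 and 9.84 in the WT arrays. *Per1*, a clock repressor that glucocorticoid induces at once, had log2 values of 10.34 and 10.27 in the KO arrays and of 10.45 and 10.56 in the WT arrays. For both, the KO levels lay below the WT levels, with gaps of 0.17 and 0.11. The difference of *Fkbp5* was -0.27 (standard error 0.13, 95% interval -0.59 to 0.05, adjusted p = 0.402 from limma). That of *Per1* was -0.20 (standard error 0.13, 95% interval -0.51 to 0.11, adjusted p = 0.498 from limma). Neither was called in any setting tried, and neither changed sign.

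*Dusp1* and *Sgk1* showed no separation of the groups. *Dusp1*, a phosphatase that switches off MAP kinases, had log2 values of 10.80 and 10.60 in the KO arrays and of 10.49 and 11.16 in the WT arrays. *Sgk1*, a kinase that raises sodium channel activity in epithelia, had log2 values of 9.18 and 8.92 in the KO arrays and of 8.76 and 9.20 in the WT arrays. In both genes the KO values lay between the WT values, WT replicate 1 was the lowest array and WT replicate 2 the highest. The distance between the WT arrays, 0.67 for *Dusp1* and 0.44 for *Sgk1*, was larger than for any other of the 10 genes, with *Zbtb16* next at 0.42. The difference of *Dusp1* was -0.13 (standard error 0.23, 95% interval -0.68 to 0.43, adjusted p = 0.81 from limma), where left-out KO arrays gave -0.23 (replicate 1) and -0.025 (replicate 2), and left-out WT arrays -0.46 (replicate 1) and 0.21 (replicate 2). The difference of *Sgk1* was 0.07 (standard error 0.19, 95% interval -0.39 to 0.52, adjusted p = 0.884 from limma), where left-out KO arrays gave -0.06 (replicate 1) and 0.20 (replicate 2), and left-out WT arrays -0.16 (replicate 1) and 0.29 (replicate 2). The direction of these genes thus rested on which arrays were used.

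**Figure D3:**
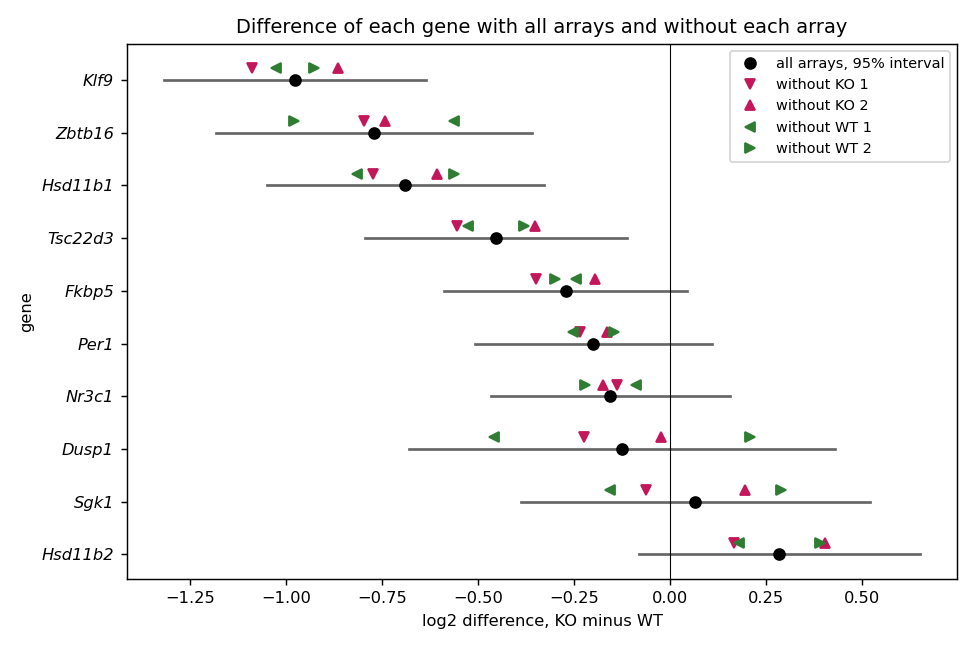
Each row is 1 gene, with the log2 difference KO minus WT on the horizontal axis as a black point with its 95% interval from limma, and triangles for the difference without each array in turn. The intervals of *Klf9*, *Zbtb16*, *Hsd11b1* and *Tsc22d3* lie below 0, and the triangles of *Dusp1* and *Sgk1* lie on both sides of 0.

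Other genes known to be induced by glucocorticoids gave a mixed picture with more lower than higher means in KO. Of 25 measured genes of 26 listed, 18 were lower and 7 higher, with a median difference of -0.13 against -0.05 over all genes. Without WT replicate 1 this median was -0.25 and without WT replicate 2 it was -0.06. None was called by limma (0 of 25). An unadjusted p under 0.05 was found for 7 lower and 1 higher, where 8.58% and 5.88% of all genes had it. Past 1.2-fold and without overlap, 7 were lower, or 28.0% of the list against 15.1% of all genes. *Map3k6*, a stress kinase, had log2 values of 8.16 and 8.08 in the KO arrays and of 8.98 and 8.93 in the WT arrays, lower in KO by limma's estimate of -0.83 (standard error 0.13, adjusted p = 0.0521). It was called with the replicate block (adjusted p = 0.0319), median centring (0.0478), cyclic loess (0.0349) and the dimmest genes left out (0.0353). It was not called with averaged probe sets (0.0533) or with trend and robust (0.0627). Nor was *Map3k6* called with either KO array left out, where almost no gene of the whole table was. Its difference was -0.87 without KO replicate 1 and -0.79 without KO replicate 2. *Klf15*, a regulator of amino acid catabolism, had 9.03 and 8.96 in the KO arrays and 9.58 and 9.71 in the WT arrays. *Cebpd*, a leucine zipper factor of the acute phase response, had 7.28 and 7.15 in the KO arrays and 7.82 and 7.91 in the WT arrays. *Pdk4*, a kinase that shuts pyruvate out of the mitochondrial oxidation of glucose, had 8.68 and 8.43 in the KO arrays and 9.17 and 9.37 in the WT arrays. None of these groups overlapped, and the differences were -0.65 for *Klf15*, -0.65 for *Cebpd* and -0.71 for *Pdk4*, with adjusted p values of 0.0937, 0.0956 and 0.11 from limma. With cyclic loess *Klf15* and *Pdk4* were called (adjusted p = 0.0416 and 0.0373 from limma) and *Cebpd* was not (0.0558). With median centring none of these genes was called. The gene that was higher at an unadjusted p under 0.05 was *Angptl4*, an inhibitor of lipoprotein lipase, named after its values were seen. It had log2 values of 9.02 and 8.86 in the KO arrays and of 7.99 and 8.46 in the WT arrays, and limma gave 0.71 (standard error 0.18, adjusted p = 0.162).

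The metallothionein genes *Mt1* and *Mt2*, which bind zinc and are induced by glucocorticoid and by metals, were also named after their values were seen. *Mt2* had log2 values of 11.97 and 11.73 in the KO arrays and of 10.73 and 12.47 in the WT arrays, and *Mt1* had 10.60 and 10.52 in the KO arrays and 9.95 and 11.05 in the WT arrays. As in *Dusp1* and *Sgk1*, the KO values stood between a low WT replicate 1 and a high WT replicate 2. The difference of *Mt2* was 0.25 (standard error 0.50, adjusted p = 0.83 from limma), and it was -0.62 with WT replicate 1 left out and 1.12 with WT replicate 2 left out. That of *Mt1* was 0.06 (standard error 0.33, adjusted p = 0.943), and it was -0.49 with WT replicate 1 left out and 0.61 with WT replicate 2 left out.

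Genes whose proteins fold the receptor or regulate with it lay on both sides of WT. Of 17 measured genes of 20 listed as chaperones and co-regulators, 9 were higher and 8 lower, with a median of 0.13. None was called by limma (0 of 17). Those with an unadjusted p under 0.05 numbered 5 higher and 0 lower, against 5.88% and 8.58% of all genes. Past 1.2-fold and without overlap, 8 of the 17 were higher and 0 lower, where 10.8% of all genes were higher in this way. The 5 were the cochaperone genes *Fkbp4*, *Ptges3* and *Stip1*, the chaperone gene *Hsp90aa1*, named after its values were seen, and *Smarca4*, the motor of a chromatin remodeler. *Fkbp4*, which favours hormone binding where *Fkbp5* disfavours it, had log2 values of 10.36 and 10.50 in the KO arrays and of 9.69 and 10.11 in the WT arrays, and limma gave 0.53 (standard error 0.18, adjusted p = 0.25). *Stip1*, which hands clients to HSP90, had 11.37 and 11.35 in the KO arrays and 10.31 and 11.12 in the WT arrays, and limma gave 0.65 (standard error 0.26, adjusted p = 0.331). The differences of *Ptges3*, *Hsp90aa1* and *Smarca4* were 0.34, 0.39 and 0.35. The 8 lower genes were also named after their values were seen. Of these, the cochaperone genes *Ppid* and *Bag1* had differences of -0.006 and -0.05. The co-regulator genes *Ncoa1*, *Ncoa2*, *Ncoa3*, *Nrip1*, *Crebbp* and *Ep300* had differences of -0.24 to -0.14. WT replicate 1 was the lowest array for 9 of the 17 genes, and the list median was 0.04 without it and 0.23 without WT replicate 2. Without WT replicate 1 the differences of *Stip1*, *Fkbp4* and *Hsp90aa1* were 0.24, 0.32 and 0.21, and without WT replicate 2 they were 1.05, 0.74 and 0.56.

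Genes of steroid handling and related receptors had smaller differences, of -0.33 to 0.14. Of 7 measured genes of 9 listed, 5 were lower and 2 higher, with a median of -0.15 (-0.30 with WT replicate 1 left out and -0.07 with WT replicate 2 left out). By limma 0 of 7 were called. At an unadjusted p under 0.05 *H6pd* was lower and none higher, where 8.58% and 5.88% of all genes were. *Abcb1a*, a pump that exports steroids, had a difference of -0.33 and *Esr1*, an estrogen receptor, of -0.32, with adjusted p values of 0.353 and 0.358 from limma. *Serpina6*, the carrier of glucocorticoid in plasma, had -0.15 (adjusted p = 0.639), and this came to -0.008 without WT replicate 2, -0.30 without WT replicate 1 and -0.0074 with cyclic loess. The difference of *Abcb1a* was -0.21 without KO replicate 2. The mineralocorticoid receptor gene *Nr3c2*, whose protein binds the same hormone, had log2 values of 7.13 and 6.92 in the KO arrays and of 6.98 and 6.79 in the WT arrays, overlapping groups and a limma estimate of 0.14 (standard error 0.15, adjusted p = 0.667), and with 1 array left out the difference lay between 0.03 (KO replicate 1 left out) and 0.24 (KO replicate 2 left out). Left-out WT arrays gave 0.23 (replicate 1) and 0.04 (replicate 2), and cyclic loess gave 0.22.

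Several of the 10 genes also answer to other signals, so the lists they share were measured beside them. *Per1* belongs to the circadian clock, of which 14 of 15 other measured genes, of 16 listed, were lower in KO and *Hlf* was higher (0.02), with a median of -0.27. None was called by limma (0 of 15). Those with an unadjusted p under 0.05 were 4 lower and 0 higher, against 8.58% and 5.88% of all genes. Past 1.2-fold and without overlap 8 were lower, or 53.3% against 15.1% of all genes. *Per3* had a difference of -0.78, *Per2* of -0.51, *Tef* of -0.48 and *Bhlhe41* of -0.48, with adjusted p values of 0.164, 0.204, 0.173 and 0.174. The difference of *Per3* was -0.50 with WT replicate 1 left out and -1.06 with WT replicate 2 left out. *Dusp1* is also an immediate early gene, one that rises within minutes of stress or growth signals. Of 16 further measured genes of this kind, 12 were lower and 4 higher, with a median of -0.24 (-0.33 with WT replicate 1 left out and -0.11 with WT replicate 2 left out), and WT replicate 2 was the highest array for 12. At an unadjusted p under 0.05, 3 were lower and 0 higher, where 8.58% and 5.88% of all genes were. By limma *Ier3*, a regulator of cell survival, fell, with log2 values of 8.41 and 8.12 in the KO arrays and of 9.34 and 9.34 in the WT arrays and an estimate of -1.08 (standard error 0.15, adjusted p = 0.0397). *Ier3* was not called with either KO array left out, where almost no gene of the whole table was. Its difference was -1.22 without KO replicate 1 and -0.93 without KO replicate 2. The Krüppel-like factors *Klf6*, *Klf2* and *Klf4* had differences of -0.47, -0.43 and -0.39 with adjusted p values of 0.234, 0.324 and 0.358. Without WT replicate 2 *Klf2* had -0.23 and *Klf4* had -0.19, and without WT replicate 1 *Klf4* had -0.59. *Egr1*, named after its values were seen, had log2 values of 8.73 and 8.54 in the KO arrays and of 7.97 and 8.43 in the WT arrays, and limma gave 0.43 (standard error 0.19, adjusted p = 0.361), or 0.20 with WT replicate 1 left out and 0.67 with WT replicate 2 left out. Whether the clock, handling of the tissue or growth signals had a part in the levels of the 10 genes was not tested.

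The levels of cell type markers are given beside these genes, and in a bulk lung fewer cells of a type and less RNA per cell cannot be told apart. Of 13 lung epithelium markers 8 were lower and 5 higher, with a median of -0.48, and their mean log2 level was 11.25 and 11.22 in the KO arrays and 11.83 and 11.89 in the WT arrays. *Scgb1a1*, *Sftpd* and *Sftpa1* fell, with differences of -2.69, -3.07 and -1.10 (adjusted p = 0.0028, 0.0074 and 0.0258 from limma), and *Ager* had -0.85 (adjusted p = 0.0511). The higher markers with an unadjusted p under 0.05 were *Epcam*, at 0.69 (adjusted p = 0.178), and *Foxa1*, at 0.37 (adjusted p = 0.333). All 8 leukocyte markers were lower, with a median of -0.35 and mean levels of 7.39 and 7.22 in the KO arrays and 7.68 and 7.74 in the WT arrays, and 0 were called. Of 7 endothelium markers 6 were lower, with a median of -0.27, and of 10 mesenchyme markers 7 were higher, with a median of 0.08 that was -0.01 without WT replicate 1, and 0 of either list were called. Levels of *Sftpc*, the surfactant gene that marks distal lung epithelium, were 13.97 and 14.01 in the KO arrays and 14.13 and 14.05 in the WT arrays. All 7 heart markers were higher, with a median of 0.70 and mean levels of 10.87 and 10.64 in the KO arrays and 10.05 and 9.79 in the WT arrays, and *Nppa* rose by 1.78 (adjusted p = 0.0172). All 9 proliferation markers were higher, with a median of 0.99 and mean levels of 11.34 and 11.25 in the KO arrays and 9.96 and 10.65 in the WT arrays, of which *Hells* rose (1.22, adjusted p = 0.0258). WT replicate 1 was the lowest array for all 9, and their median was 0.61 without it. Of the other lists, 3 of 3 measured erythroid markers, 5 of 6 thymus markers and 5 of 7 liver and oesophagus markers were lower, and of these *Krt4* of the oesophagus alone was called, as higher. The 10 receptor and responsive genes had mean levels of 10.07 and 9.91 in the KO arrays and 10.25 and 10.39 in the WT arrays. The part of these cell types in their levels was not tested. RMA gives no detection call, so no marker can be said to be at 0.

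**Figure D4:**
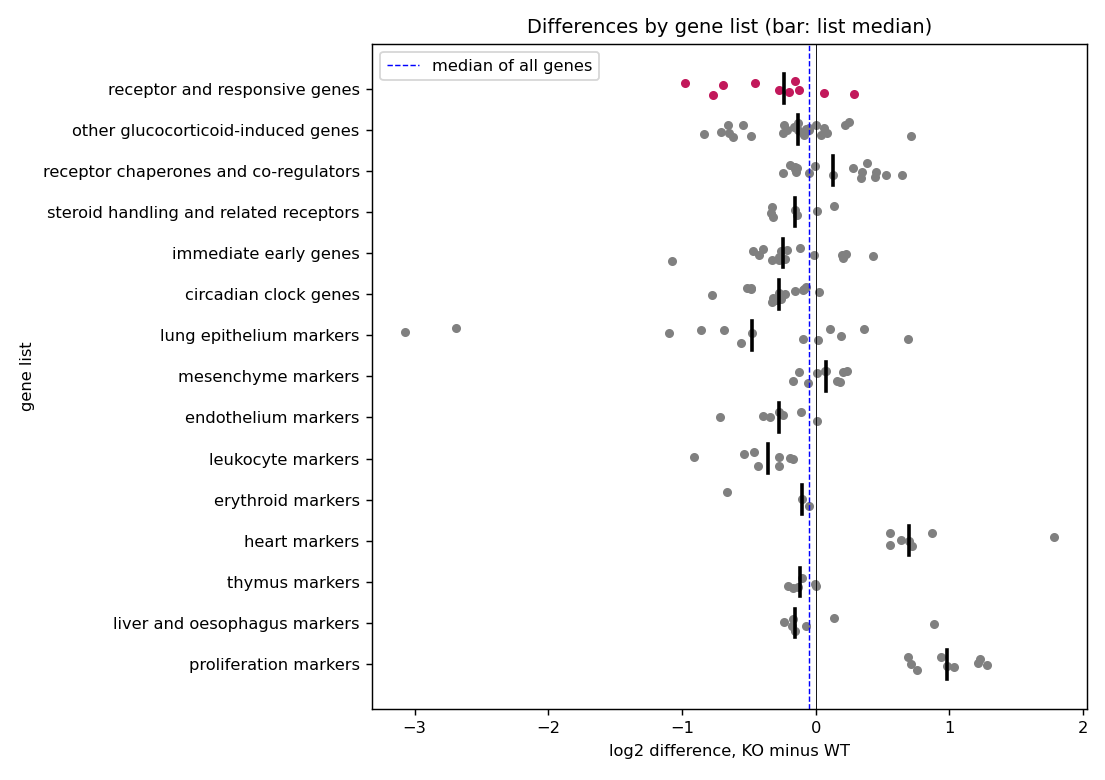
Each point is the log2 difference KO minus WT (horizontal axis) of a measured gene of the list on its row, the bar is the list's median, and the dashed line is the median of all genes at -0.05. The receptor and responsive genes have a median of -0.24, the chaperones and co-regulators of 0.13, and the heart and proliferation markers lie wholly above 0.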

How the data were processed

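RNA of 2 *Hmga2*-/- and 2 *Hmga2*+/+ samples of E18.5 lung was measured on 1 Affymetrix array each. The deposited file held log2 values for 30177 probe sets. The submitters' processing notes name RMA and Affymetrix Expression Console, without versions, as the tools. Platform annotation gave 1 gene symbol for 21789 probe sets, several for 1621 and none for 6767. The brightest probe set stood for a gene, and this left 19938 genes. Sorted arrays differed by up to 0.362, so they lay close to but not on a common distribution. All 4 columns were used. Differences were tested with limma 3.58.1 (R 4.3.3), using lmFit and then eBayes with no trend (2 residual and 4.42 prior degrees of freedom), with p values two-sided and adjusted over all genes. The labels name biological replicates and the study's methods biological duplicates, but neither states whether each array came from a separate embryo. The p values thus measure the spread between these samples. With 2 arrays against 2, an exact permutation test could not go below 0.333. The code was tested on simulated data.

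Named genes are the 10 genes, *Hmga2*, *H6pd*, *Nr3c2*, of each pathway list the genes called and up to 4 with the smallest p, and of the marker lists those needed to give the list. Genes and lists were chosen with earlier results of these data known. *Angptl4*, *Mt1*, *Mt2*, *Egr1*, *Hsp90aa1*, *Hlf*, *Sftpc*, *Epcam* and *Foxa1* were named after their values were seen. So were *Ppid*, *Bag1*, *Ncoa1*, *Ncoa2*, *Ncoa3*, *Nrip1*, *Crebbp* and *Ep300*. Alternatives were a block for the replicate number, median centring, cyclic loess, a filter on the dimmest 40 percent, averaged probe sets, eBayes with trend and robust, an adjusted p of 0.10, a treat test at 1.2-fold, and each array left out in turn. A lone array was assumed to have the spread of the other group, and without a WT array the fit gave all genes 1 common standard error. Promoters came from RefSeq on GRCm38.p6. Figures were drawn with matplotlib 3.10.9.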

Additional observations from a re-analysis of the deposited data

How the results depend on the processing

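The number of the 10 genes called as lower was 1, and it became 2 with cyclic loess, 0 with treat against 1.2-fold and 0 to 5 when 1 array was left out, and the number called as higher was 0, or 0 to 1 with an array left out. Past 1.5-fold in place of 1.2-fold, 3 in place of 5 were lower and 0 in place of 1 higher. The median of the 10 was -0.24, with -0.29 under cyclic loess and -0.36 to -0.19 when 1 array was left out. Over all genes, 140 lower and 16 higher calls became 221 and 73 with median centring, 270 and 80 under cyclic loess, 227 and 74 once the dimmest 40 percent were dropped, 350 and 107 at a threshold of 0.10, 50 and 2 with treat, and 0 to 2971 and 0 to 3321 when 1 array was left out. Trend and robust gave 171 and 25. With a WT array left out, every gene had the same standard error, 0.155, so those counts follow the size of the difference alone. The cause of the other shifts was not tested. *Hmga2* turned to -0.0058 with cyclic loess and lay between -0.076 and 0.18 with an array left out. *Dusp1* ran from -0.46 to 0.21, *Sgk1* from -0.16 to 0.29, *Mt1* from -0.49 to 0.61 and *Mt2* from -0.62 to 1.12.

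With the replicate number as a block, 1 of the 10 genes was called, as lower (*Klf9*, adjusted p = 0.0180), and 361 lower and 241 higher over all genes. The deviations of the arrays with number 1 from their group means correlated at -0.238, so the numbers are not taken to pair the samples. A crossed pairing, added after the data were seen, called 1 of the 10 as lower, and 305 lower and 207 higher over all genes. Precision is limited by the 4 arrays, and signal over background is unknown here.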
